A study of Mus musculus with 16 samples.

Results

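MyoG-only regions are places where the deposited peak lists held a peak of MyoG in early myotubes and no overlapping peak of RUNX1, MyoD or c-Jun in myoblasts. They were selected on the presence of called peaks: peaks of the 4 lists on chromosomes 1 to 19 were merged wherever they overlapped by at least 1 bp, and merged regions holding MyoG alone were kept. There were 16259 such regions among 97753 merged regions (16.6%) and among 58291 regions that held MyoG (27.9%). The other 42032 MyoG regions also held at least 1 myoblast factor. The count of MyoG-only regions is a description, since the presence of peaks chose the members. For comparison, c-Jun-only regions made up 34.0% of the regions that held c-Jun. RUNX1-only regions made up 25.6% of those that held RUNX1, and MyoD-only regions 14.4% of those that held MyoD.

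The study used chromatin immunoprecipitation followed by sequencing (ChIP-seq) on primary muscle cells grown from satellite cells, the resident stem cells of skeletal muscle. The cells came from the gastrocnemius of wild-type C57BL/6 mice aged 2 to 3 weeks. The 16 samples formed 8 groups of 2. Dividing myoblasts, kept for 3 days in proliferation medium, gave the RUNX1, MyoD and c-Jun samples. MyoG was precipitated after a further 24 h in low-serum differentiation medium with insulin, from primary myotubes. The controls were rabbit non-immune serum for RUNX1, mouse IgG for MyoD and for MyoG at the matching stage, and rabbit IgG for c-Jun. The labels call the 2 samples of each factor biological replicates and do not say how many animals gave the cells. The files held 1 peak list per factor and no expression values, so the replicates cannot be separated, no test between conditions can be made and the muscle identity of the cells was not checked against marker genes. Read depth is unknown, and the list taken as MyoG carries the abbreviation MG and was assigned by elimination.

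MyoG (myogenin) is a basic helix-loop-helix transcription factor that rises when myoblasts stop dividing and begin to fuse into myotubes. It pairs with E proteins on short DNA elements called E-boxes, which MyoD, the factor that sets the muscle lineage, also recognises. MyoD opens chromatin in myoblasts, and MyoG acts later on many of the same muscle genes. RUNX1 is a Runt-domain factor and c-Jun a subunit of AP-1, both active in proliferating myoblasts.

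The word "new" cannot be attached to these regions from the lists alone. MyoG was not mapped in myoblasts, and MyoD, RUNX1 and c-Jun were not mapped in myotubes. Factor and stage therefore cannot be told apart, and a missing peak does not show that a factor was absent. Genes, promoters and motifs at the regions are not analysed here, because the reference tables at hand are on another build than the files' mm9.

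Each of the 16259 regions held exactly 1 MyoG peak. The rule sets this, since MyoG peaks that do not overlap each other share a region only through another list's peak. The peaks were narrow, with a median width of 575 bp and a central 80% between 441 and 719 bp; the narrowest measured 161 bp and the widest 1977 bp. Together they covered 9516516 bp. MyoG peaks that shared a region with a myoblast factor had a median width of 673.5 bp.

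The authors' peak score had a lower median in MyoG-only regions than in MyoG regions with a myoblast factor, though the distributions overlapped. It is the value their software wrote for each peak, starts near 50 in the MyoG list and is used here within that list alone. The median score of MyoG-only regions was 95.7 (95% interval of the median 94.3 to 97.0, from binomial ranks over regions), with quartiles at 65.6 and 163. MyoG regions with a myoblast factor had a median of 301 (296 to 305) and quartiles at 124 and 751. The difference of medians was -205 score units, and MyoG-only was the lower group on 19 of 19 chromosomes, with differences between -239 and -170. Chromosomes of 1 list are not replicates, so no p is given for this or any other difference below.

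A score of 100 or more was reached by 71.7% of all regions that held MyoG. Among MyoG-only regions it was reached by 7717 (47.5%), against 34077 (81.1%) of the MyoG regions with another factor. At 500 or more stood 408 MyoG-only regions (2.51%) and 15077 of the others (35.9%). At 1000 or more the counts were 33 (0.203%) and 7533 (17.9%). No MyoG-only region reached 3100, a value at which many peaks of the lists pile up, while 768 other MyoG regions did.

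The median MyoG score differed with the factors that shared the region and was highest in regions that held MyoD. Regions with c-Jun and MyoG alone were closest to the MyoG-only regions: 1068 regions with a median of 91.7 (88.2 to 97.0), whose interval overlaps that of MyoG-only. Their chromosome medians lay above the MyoG-only value on 7 of 19 chromosomes. The 4522 regions with RUNX1 and MyoG had a median of 131 (127 to 135), higher than MyoG-only on 19 of 19 chromosomes. The 2586 regions with RUNX1, c-Jun and MyoG had a median of 112 and were higher on 18 of 19.

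With MyoD present the medians were larger still. The 12071 regions with MyoD and MyoG had a median of 237 (231 to 243). The 4638 regions with MyoD, c-Jun and MyoG had a median of 256, the 6615 with RUNX1, MyoD and MyoG 597, and the 10532 with all 4 factors 703. Each of these 4 classes lay above MyoG-only on 19 of 19 chromosomes. Regions with several factors also held several MyoG peaks more often, and their highest peak was used: 83.4% of the regions with all 4 factors held 1 MyoG peak, against 98.9% of those with MyoD and MyoG.

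**Figure D1:**
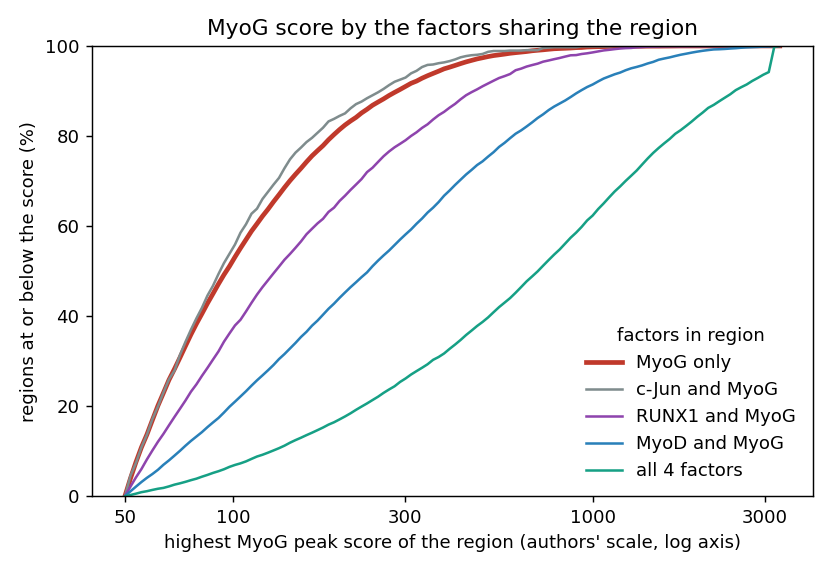
Cumulative share of regions (y axis, percent) at or below each MyoG peak score (x axis, authors' scale, log axis), with 1 line per set of factors in the region. The line of MyoG-only regions (median 95.7) runs beside that of c-Jun and MyoG (91.7) and to the left of RUNX1 and MyoG (131), MyoD and MyoG (237) and all 4 factors (703).

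Read the other way, the share of MyoG regions without any myoblast peak fell from class to class as the MyoG score rose. All 58291 MyoG regions were divided into 10 classes of nearly equal size by score. In the lowest class, with scores from 50.01 to 62.15, 3364 of 5837 regions were MyoG-only (57.6%, Wilson 95% interval 56.4 to 58.9). In class 5 the share was 33.0% (31.8 to 34.2). In class 8 it was 8.18% (7.51 to 8.91), and in class 9 it was 2.57% (2.20 to 3.01). In the highest class, from 1205.43 upwards, 14 of 5829 regions were MyoG-only (0.240%, 0.143 to 0.403). The intervals cover counting of regions only.

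The share of MyoG regions that held MyoD ran the other way. MyoD was present in 22.5% of the regions of the lowest class, 49.9% in class 5 and 99.2% in the highest. Regions that held RUNX1 or c-Jun without MyoD made up 19.9% of the lowest class, 21.0% of class 3 and 0.515% of the highest.

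MyoD scores were lower in the lower MyoG classes than in the highest ones, with little change over the lower classes. Among regions with MyoD and MyoG alone, the median MyoD score was 97.6 in the lowest MyoG class, 117 in class 5 and 475 in the highest. A MyoD score under 75 was carried by 27.8% of 737 such regions in the lowest class. The share was 24.5% of 1398 in class 5 and 1.87% of 695 in the highest. Values over all MyoD peaks are not given here. Binding below the score at which peaks were listed could not be seen, and its part in the share of MyoG-only regions was not tested.

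**Figure D2:**
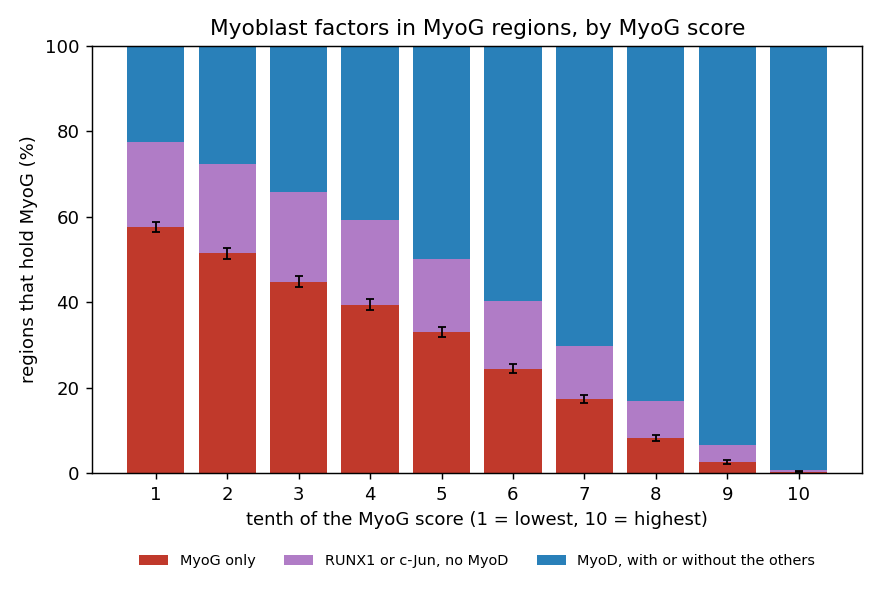
Share of regions that held MyoG (y axis, percent) in 10 classes of the MyoG score (x axis, 1 lowest), divided into MyoG-only, RUNX1 or c-Jun without MyoD, and MyoD with or without the others; black bars are Wilson 95% intervals of the MyoG-only share. The MyoG-only share goes from 57.6% in class 1 to 0.240% in class 10.

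Within a score class the MyoG-only peaks differed little in width from the strongest MyoG peak of other regions. The median width was smaller in 9 of 10 classes, by 10 to 21.5 bp. Width went up with score, and scores were not matched inside a class, so these gaps are not differences at equal score. In the lowest class it was 502 bp against 514 bp, and in class 5 it was 627 bp against 642 bp. In the highest class, which held only 14 MyoG-only regions, it was 1039 bp against 930 bp. A narrower peak has less room to overlap another, and the part of width in the choice of members was not tested.

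MyoG-only regions were spread over all 19 chromosomes at a nearly constant share of the MyoG regions. The share ran from 25.2% on chromosome 15 to 29.4% on chromosome 5, with a median of 27.5% and an SD of 1.09 over 19 chromosomes. Their number per Mb varied more, from 4.55 on chromosome 14 to 9.51 on chromosome 11, and the density of the other MyoG regions was also lowest on chromosome 14 (12.4 per Mb) and highest on chromosome 11 (24.5 per Mb). Chromosome medians of the MyoG-only score lay between 91.0 and 103.

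**Figure D3:**
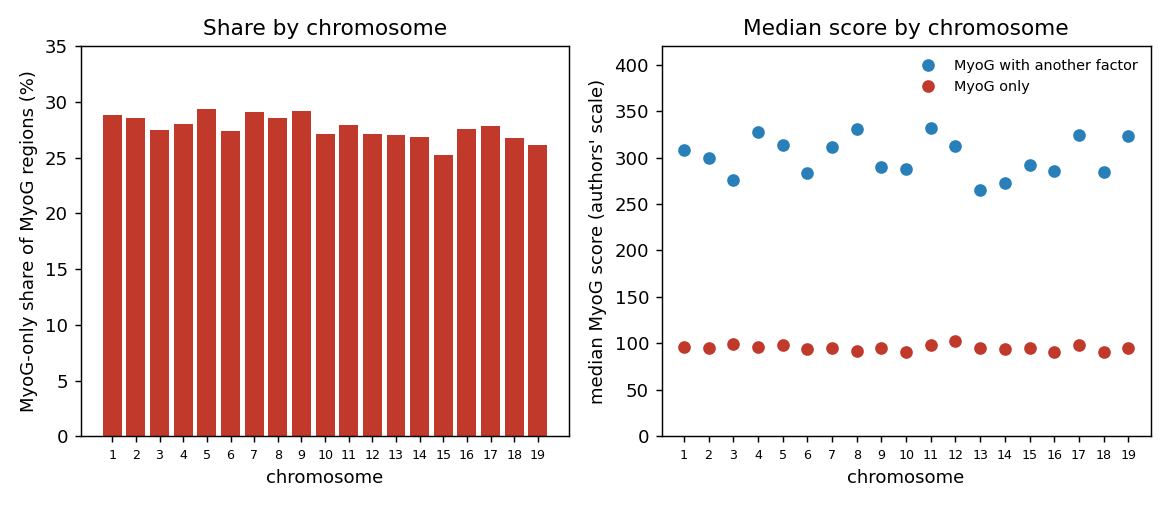
Left, MyoG-only share of the regions that held MyoG (y axis, percent) on each chromosome (x axis), between 25.2% and 29.4%. Right, median MyoG score (y axis, authors' scale) of MyoG-only regions (red) and of MyoG regions with another factor (blue) per chromosome: the red points lie between 91.0 and 103 and the blue points between 265 and 332, without overlap.

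MyoG-only regions were dense where other MyoG regions were dense. Across 2406 bins of 1 Mb, pooled over the 19 chromosomes, the number of MyoG-only regions went with the number of MyoG regions holding another factor (Pearson's r = 0.87, Spearman's rho = 0.90). The values were lower for RUNX1-only regions (r = 0.71, rho = 0.78), c-Jun-only regions (r = 0.51, rho = 0.68) and MyoD-only regions (r = 0.43, rho = 0.56). The classes differ in size, with 42032, 10565, 13905 and 6301 regions in the order given, and few regions per bin lower a correlation by themselves, so the order of the values is no finding. Bins share peak lists and base composition, and all of these values are descriptions. The 2406 bins do not cover the full length of the 19 chromosomes. At least 1 MyoG-only region was present in 1948 of the bins, the median was 5, and the fullest bin, on chromosome 5 from 36000001 to 37000000, held 49.

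Most MyoG-only regions had a myoblast factor nearby but not on top of them. The nearest RUNX1, MyoD or c-Jun peak lay a median of 4046 bp away, edge to edge, with quartiles at 1369 and 10451 bp. Such a peak lay within 10 kb of 12012 MyoG-only regions (73.9%). The same held for 73.9% of all merged regions, counting peaks outside the region itself. At this distance, closeness to myoblast peaks was at the level of the whole map. Within 1 kb the share was 19.8%, below the 21.3% of all merged regions. Within 50 kb it was 96.7%, against 96.7% of all merged regions.

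The share within 10 kb was higher than for regions of a single myoblast factor. It was 65.1% for MyoD-only regions, lower than for MyoG-only on 19 of 19 chromosomes, 68.5% for c-Jun-only (lower on 18 of 19) and 71.5% for RUNX1-only (lower on 16 of 19). For regions with MyoD and MyoG it was 74.2%, and for those with all 4 factors 83.6%. The order against RUNX1-only regions depended on the distance. Within 1 kb the share was 21.2% for RUNX1-only regions, above the 19.8% for MyoG-only. It was 17.9% for MyoD-only and 17.9% for c-Jun-only regions.

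No list stood out as the neighbour. The nearest myoblast peak was a c-Jun peak at 5583 MyoG-only regions (34.3%), a MyoD peak at 5365 (33.0%) and a RUNX1 peak at 5299 (32.6%), with 12 ties. The lists contributed 32.2%, 35.1% and 32.8% of the peaks in the same order. The median distance was 7952 bp to a MyoD peak, 8324 bp to a RUNX1 peak and 9956 bp to a c-Jun peak.

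MyoG-only regions lay close to other MyoG regions. The next MyoG region was a median of 4574 bp away and lay within 10 kb of 11156 MyoG-only regions (68.6%), against 63.0% of all merged regions. The distance was longer for regions without MyoG, with medians of 7246 bp for RUNX1-only, 9346 bp for c-Jun-only and 10409 bp for MyoD-only regions. Regions with MyoG and another factor were like MyoG-only regions in this measure, with a median of 4427.5 bp and 69.2% within 10 kb.

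**Figure D4:**
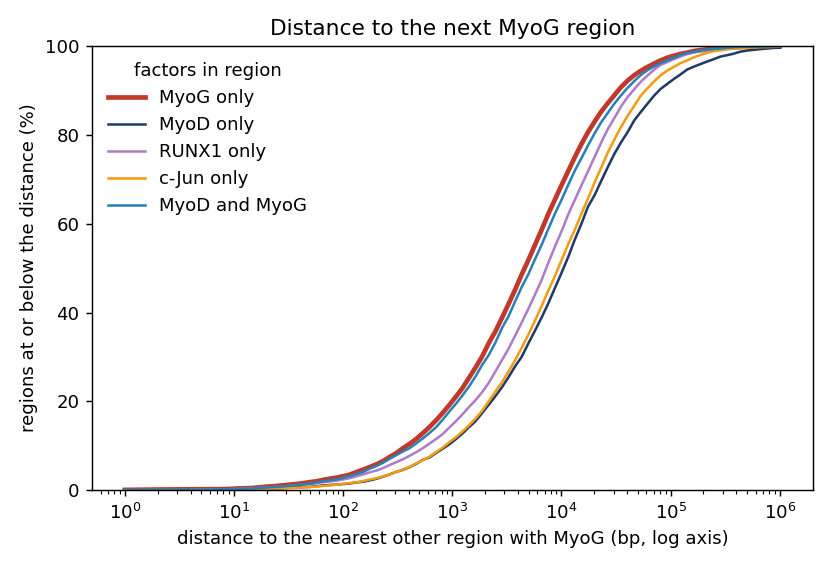
Cumulative share of regions (y axis, percent) whose nearest other MyoG region lies at or below a given distance (x axis, bp, log axis), with 1 line per set of factors in the region. MyoG-only regions (median 4574 bp) run close to regions with MyoD and MyoG (5262 bp) and to the left of RUNX1-only (7246 bp), c-Jun-only (9346 bp) and MyoD-only regions (10409 bp).

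Distances were also taken to the nearest MyoG region that held a myoblast factor. Such a region lay within 1 kb of 2264 MyoG-only regions (13.9%), within 10 kb of 9449 (58.1%) and farther than 100 kb from 674 (4.15%). Over all merged regions the shares were 13.0% within 1 kb and 54.3% within 10 kb. For MyoG regions with another factor they were 15.7% and 60.2%. The MyoG-only values were thus near those of the map. The score of MyoG-only regions changed little up to 50 kb. Its median was 96.7 (93.7 to 100) within 1 kb, 97.9 (94.3 to 100.7) from 5 to 10 kb and 95.2 (92.4 to 97.8) from 10 to 50 kb. It was lower in more isolated regions, with 91.5 (86.7 to 95.8) from 50 to 100 kb and 82.4 (77.3 to 87.7) beyond 100 kb. Compared with the regions beyond 100 kb alone, those within 1 kb had the higher median on 18 of 19 chromosomes and the lower on 1. The band beyond 100 kb held 674 regions over all chromosomes, with chromosome medians from 71.5 to 118.5.

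Along the chromosome, the adjacent merged region held MyoG in 65.2% of cases for MyoG-only regions, against 59.6% over all merged regions. It was another MyoG-only region in 20.1% of cases, against 16.6%, and a c-Jun-only region in 11.7%, against 14.2%. Most MyoG-only regions, 10481, had a region of another kind on both sides. Of the rest, 3918 stood in pairs, 1194 in runs of 3, and 666 in longer runs of up to 7.

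The longest runs of MyoG-only regions, 7 each, lay on chromosome 1 (bases 189882911 to 189961488) and chromosome 7 (bases 150284668 to 150308177). The run on chromosome 7 spanned 23.5 kb with scores from 65.2 to 491 and a median of 169. The run on chromosome 1 spanned 78.6 kb with scores from 60.5 to 406 and a median of 98.9. Of the 8 runs of 6, the foremost in chromosome order spanned 608 kb of chromosome 1, between bases 68548112 and 69155652; its scores lay between 67.0 and 1120.

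The 10 highest-scoring MyoG-only regions had scores from 1402 to 2237. They were named by a rule on the score, and the score was not part of the choice of members. For 4 of the 10, a myoblast peak lay within 1 kb, for 8 within 10 kb and for all 10 within 50 kb. Over all MyoG-only regions the shares were 19.8%, 73.9% and 96.7%, and with 10 regions no difference from these is claimed.

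The highest score, 2237, belonged to the region on chromosome 7 from 139912008 to 139913047, which only just met the rule. A c-Jun peak ended 2 bp away and a RUNX1 peak 84 bp away, both in a region that held RUNX1, c-Jun and a MyoG peak of its own with a score of 376. The nearest MyoD peak was 4305 bp away. On chromosome 11, from 6304555 to 6305976, a region with a score of 1742 had a RUNX1 peak 123 bp away and its nearest MyoD peak at 7400 bp.

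Other high-scoring regions lay over 1 kb from any myoblast peak. The region on chromosome 13 from 20279987 to 20280708 scored 1694 and lay 1235 bp from a MyoD peak, 17940 bp from a c-Jun peak and 18069 bp from a RUNX1 peak. The region on chromosome 9 from 107358730 to 107359619 scored 1664, with RUNX1 at 6058 bp and MyoD at 43453 bp. The region on chromosome 7 from 98569601 to 98570192 scored 1567 and was the narrowest of the 10 at 592 bp, with c-Jun at 10557 bp, MyoD at 21009 bp and RUNX1 at 120712 bp.

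The remaining 5 of the 10 differed in how close their neighbours were. On chromosome 4, from 155231588 to 155232625, the score was 1651 and a RUNX1 peak lay 565 bp away. On chromosome 9, from 65091553 to 65092862, the score was 1559 and MyoD lay at 1229 bp. On chromosome 5, from 151093034 to 151094061, it was 1433, with RUNX1 at 553 bp and MyoD at 692 bp. On chromosome 13, from 93508499 to 93509373, it was 1402, and all 3 myoblast factors had peaks between 1108 and 1297 bp away.

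The fifth, on chromosome 14 from 58309240 to 58310875, opened a stretch of 5 consecutive MyoG-only regions that ended at 58322191. Their scores in order were 1624, 306, 993, 1343 and 195. The member from 58317840 to 58319603 was also the third widest of all, at 1764 bp. The nearest RUNX1 peak to this stretch, with a score of 52.7, fell in the next region, from 58323526 to 58324495. MyoD was 25830 bp from the opening region.

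The number of MyoG-only regions per 100 kb window varied. The same counts are not given for other classes, so the spread is not shown to be particular to these regions. Of 8634 windows of 100 kb with at least 1 MyoG-only region, 4611 held exactly 1, 453 held 5 or more and 7 held 10 or more. The 453 windows contained 2647 MyoG-only regions. In 505 windows the MyoG-only regions were the only merged regions of any kind.

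The window with most, on chromosome 7 from 139900001 to 140000000, held 14 MyoG-only regions among 27 merged regions, and 25 of the 27 held MyoG. MyoD was in 7 of them, RUNX1 in 10 and c-Jun in 5. The scores of the 14 had a median of 158 and ran from 66.6 to 2237, the value of the highest-scoring region described above. Members lay beside regions with other factors: the member with a score of 1052 ended 69 bp before a region that held all 4 factors, with MyoG at 3100, MyoD at 1563, RUNX1 at 1857 and c-Jun at 227.

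**Figure D5:**
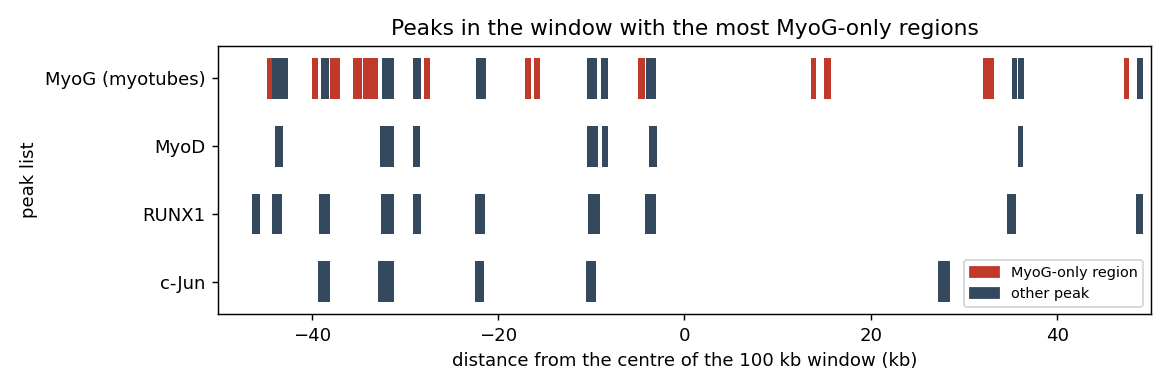
Peaks of the 4 lists (rows) over the 100 kb window with the most MyoG-only regions (x axis, distance from the window's centre in kb; bars drawn to scale). The 14 MyoG-only regions (red) lie between and beside MyoG peaks that overlap MyoD, RUNX1 or c-Jun (dark).

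Windows with 12 followed on chromosome 10 (39200001 to 39300000) and chromosome 14 (58300001 to 58400000), and a window with 11 lay on chromosome 5 (36500001 to 36600000). Their median MyoG-only scores were 118, 184 and 121. The fifth window by the rule, on chromosome 7 from 87200001 to 87300000, held 10, and 0 of its 19 regions held all 4 factors. It shared the count of 10 with the windows of chromosome 8 (114200001 to 114300000) and chromosome 10 (83800001 to 83900000).

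At the edge of the overlap rule, 202 MyoG-only regions had a myoblast peak under 50 bp away without touching it. Their scores ran from 51.3 to 2237 with a median of 92.7, and MyoD was that near at 71, RUNX1 at 73 and c-Jun at 66 of them. Just outside the rule, 66 MyoG regions overlapped a myoblast peak by under 50 bp at most, with scores from 50.7 to 439 and a median of 83.8. MyoD was in 12 of these regions, RUNX1 in 35 and c-Jun in 39. A myoblast peak lay farther than 150 bp from 15656 members (96.3%) and farther than 1000 bp from 13034 (80.2%).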

How the data were processed

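The authors deposited 1 list of peaks per factor, with chromosome, start, end, a peak name and a score. CASAVA 1.7.0 and 1.8.2, Bowtie and the build mm9 are named in the submitters' processing notes. Peak names begin with MACS, per the file contents. The score was written by the authors' software; the labels and files used here state neither its scale nor the MACS settings, the use of controls or any pooling of replicates. Set against the chromosome lengths in GenomeInfoDb 1.38.1, 0 MyoG peaks lay beyond an mm9 chromosome end and 550 beyond an mm10 end.

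Regions were merged with Python 3.11.15, numpy 2.4.6, pandas 2.3.3 and scipy 1.17.1, on chromosomes 1 to 19. The merging and distance functions were checked on planted intervals. Distances run between nearest edges, and coordinates count from 1. A region's MyoG score is its highest MyoG peak. Lists without replicates allow no test, so shares carry Wilson intervals, medians carry binomial rank intervals, and differences carry their direction on each chromosome. Neither depth nor counts are known, and the intervals cover counting of regions only.

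The members and rules were chosen with earlier results of these data known. Named were the 10 highest-scoring, 5 widest and 5 most distant members, the 5 fullest windows of 100 kb and the 3 longest runs; a rule for members with most MyoG peaks named none, since each held 1. Tied windows and the chromosome 14 stretch were added after their values were seen. Alternatives were wider merging gaps, windows of 200 bp around centres, score limits, other distances and chromosome X. Control libraries are not analysed here.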

Additional observations from a re-analysis of the deposited data

How the results depend on the processing

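No paired analysis was possible because the peak lists carry no replicate, and no replicate could be left out for the same reason. The number of MyoG-only regions, 16259, stayed within 1.5 times under merging gaps of 150, 500 and 1000 bp (15469, 13970 and 12440), with windows of 200 bp around centres (21833) and with chromosome X (16592). It was 9541 with the stronger 50% of each list and 7717 for MyoG scores of 100 or more. Both use fewer MyoG peaks by construction. The first also drops the weaker RUNX1, MyoD and c-Jun peaks, so MyoG regions that held only such peaks became MyoG-only. Under the main rule 2968 members scored 200 or more, and class 5 of the MyoG regions ended at 195.77. Membership therefore depends on the score limit of the other lists. The median score of 95.7 became 103 with windows of 200 bp and 121 for widths within the middle 80% of MyoG regions, which leaves 10614 members and drops 5643 narrower and 2 wider ones. The difference from other MyoG regions, -205, kept its direction under each gap and window and ran from -239 to -170 over single chromosomes. The share of members within 10 kb of a myoblast peak, 73.9%, was 19.8% within 1 kb, 55.8% within 5 kb, 96.7% within 50 kb, 74.7% for scores of 100 or more and 56.1% with the stronger 50% of each other list. Promoter and motif alternatives were not run without a genome of build mm9. Depth is unknown, so weak binding of the other factors may go unlisted.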

Other observations

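Chromosome X was outside the rule. It held 333 MyoG-only regions among 944 regions with MyoG, a share of 35.3%, above the highest share of any of chromosomes 1 to 19 (29.4%). Their median score was 102, within the range of the 19 chromosome medians (91.0 to 103).

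The widest members lay on chromosome 9 from 107974531 to 107976507 (1977 bp, score 435), chromosome 17 from 3081388 to 3083253 (1866 bp, 202), chromosome 14 from 58317840 to 58319603 (1764 bp, 1343), chromosome 19 from 58317877 to 58319531 (1655 bp, 311) and chromosome 2 from 155816609 to 155818252 (1644 bp, 475).

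The members most distant from any RUNX1, MyoD or c-Jun peak were weak, with scores from 58.9 to 71.5, and 5 members lay farther than 1 Mb from one. Of these, 3 lay near the start of chromosome 14 (3651455 to 3651721, 5072076 to 5072373 and 7469707 to 7469991), at 4926, 3506 and 1108 kb, and each was under 300 bp wide. The other 2 lay on chromosome 5 (60452330 to 60452887) and chromosome 1 (149241301 to 149241737), at 1439 and 1435 kb. After these values were seen, peaks under 300 bp were counted: there were 56 among MyoG-only regions (0.344%) and 37 among other MyoG peaks (0.0818%). The 56 had a median score of 68.05 and a highest score of 158. Width went up with score and MyoG-only scores were lower, so these counts are not a comparison at equal score.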
